A study of Mus musculus with 9 samples.

Results

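Cell cycle genes were followed across 3 regions of the mouse tail at E10.5. The 44 genes were listed by name, among 19057 genes that carry a symbol on the array, and fall into 12 genes of the G1 phase, 16 of DNA replication and 16 of mitosis. Every probe annotated to a listed gene was taken, whatever its value. Of the 44 genes 42 had a probe, 92 probes in all, and Ccnb1 and Mki67 had none. The chordoneural hinge (CNH) is the tailbud region where progenitors of the axial tissues reside, the tailbud mesoderm (TBM) adjoins it, and somites form from the unsegmented presomitic mesoderm (PSM). All embryos were wild type and untreated. The methods name CD1 and C57Bl/6J mothers without saying which strain gave which array, and the RNA of each array came from many pooled pieces. Total RNA was made into biotin-labelled cRNA and hybridised to Illumina Ref6v2 bead arrays, 3 for the CNH, 3 for the TBM and 3 for the PSM. The study's text gives 2 biological and 1 technical replicate for each region without saying which is which, so that the SDs and p-values below, which treat 3 arrays as 3 samples, may partly rest on technical spread.

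A dividing cell passes through G1, copies its DNA in S phase and separates the copies in mitosis. Cyclin D with CDK4 or CDK6, and then cyclin E with CDK2, phosphorylate the retinoblastoma protein, which releases E2F factors to switch on replication genes. Cyclin A, cyclin B and CDK1 then drive mitosis, and the spindle checkpoint holds the anaphase-promoting complex until every chromosome is attached. Many replication promoters carry E2F elements. Many mitotic promoters carry a CCAAT box, bound by NF-Y, and a cell cycle genes homology region (CHR), through which the DREAM complex represses them in resting cells.

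Promoter windows were read for 36 of the 44 genes from RefSeq (build GRCm38.p6), each of 300 bases, 250 before and 50 after the start, 39 windows in all. Ccnd1, Ccnd2, Ccne2, Rb1, Mcm4, Gmnn, Ccna2 and Aurkb had no entry. An E2F element was searched as TTTCCCGC, TTTGGCGC, TTTCGCGC or TTTGCCGC, the CHR as TTTGAA and the NF-Y box as CCAAT, each on both strands. The 4 promoters printed here are 2 of replication and 2 of mitosis genes with different sets of matches, and each runs 5′ to 3′ on the strand of its gene with the matches in capitals. Mcm6, a subunit of the replicative helicase (chr1:128359656-128359955, minus strand), held 3 E2F matches, of which the first and second overlap in 1 run, and 2 CCAAT boxes. Rrm2, the regulatory subunit of ribonucleotide reductase (chr12:24708004-24708303, plus strand), held 1 CCAAT box only and was the only replication gene called below. Cdk1, the mitotic kinase (chr10:69352863-69353162, minus strand), held 1 E2F match, 2 CHR matches and 3 CCAAT boxes. Cdc20, the activator of the anaphase-promoting complex (chr4:118437294-118437593, minus strand), held 1 CHR match and 2 CCAAT boxes.
Mcm6: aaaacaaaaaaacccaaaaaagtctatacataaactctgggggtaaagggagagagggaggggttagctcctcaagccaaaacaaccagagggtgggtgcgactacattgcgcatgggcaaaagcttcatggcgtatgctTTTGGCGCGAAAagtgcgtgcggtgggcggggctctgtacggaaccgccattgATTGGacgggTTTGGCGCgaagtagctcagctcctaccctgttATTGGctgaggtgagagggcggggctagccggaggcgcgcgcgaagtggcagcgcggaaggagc
Rrm2: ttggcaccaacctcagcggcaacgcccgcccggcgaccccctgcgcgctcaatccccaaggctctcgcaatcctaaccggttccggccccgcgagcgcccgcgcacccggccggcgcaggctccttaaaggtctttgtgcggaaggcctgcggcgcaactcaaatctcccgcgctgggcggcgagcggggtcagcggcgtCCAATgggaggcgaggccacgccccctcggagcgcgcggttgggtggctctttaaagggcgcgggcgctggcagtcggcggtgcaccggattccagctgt
Cdk1: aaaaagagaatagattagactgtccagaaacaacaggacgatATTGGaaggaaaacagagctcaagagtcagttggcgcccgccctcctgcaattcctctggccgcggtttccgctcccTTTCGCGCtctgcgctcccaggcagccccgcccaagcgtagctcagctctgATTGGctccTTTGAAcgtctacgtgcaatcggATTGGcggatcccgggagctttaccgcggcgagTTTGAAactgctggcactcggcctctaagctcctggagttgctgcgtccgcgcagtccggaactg
Cdc20: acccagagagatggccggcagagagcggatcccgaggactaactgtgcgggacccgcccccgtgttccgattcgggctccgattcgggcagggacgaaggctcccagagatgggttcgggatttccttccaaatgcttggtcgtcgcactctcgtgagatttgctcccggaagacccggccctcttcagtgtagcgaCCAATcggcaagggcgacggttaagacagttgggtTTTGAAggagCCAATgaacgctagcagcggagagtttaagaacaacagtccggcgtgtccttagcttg

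E2F matches were most frequent in replication windows and CHR matches in mitosis windows, while CCAAT was frequent in both. An E2F element stood in 7 of 15 windows of replication genes (46.7%), in 1 of 14 of mitosis genes (7.14%) and in 1 of 10 of G1 genes, against 2.26% of all 32851 windows. The replication windows with E2F matches belonged to Mcm3, Mcm5, Mcm6, 1 of the 2 starts of Mcm7, Cdc6, Cdt1 and Pola1. The CHR stood in 10 of 14 mitosis windows (71.4%), in 1 of 15 replication windows (6.67%) and in 0 of 10 G1 windows, against 17.9% of all windows. CCAAT was found in 12 of 14 mitosis windows (85.7%), 11 of 15 replication windows (73.3%) and 4 of 10 G1 windows, against 37.4% of all windows. A match is a stretch of letters and not a measured binding site, and 3 genes (Ccnd3, Cdkn2c and Mcm7) gave 2 windows each.

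**Figure D1:**
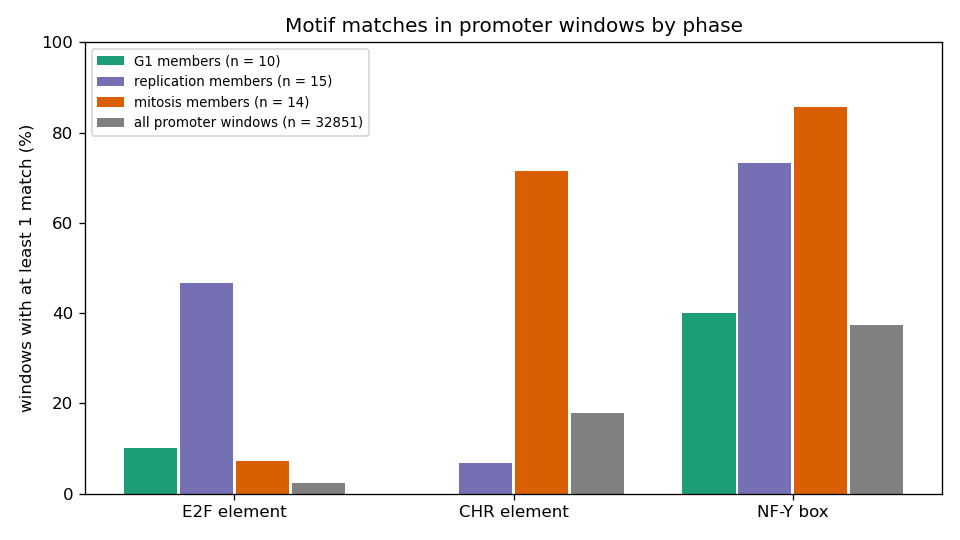
Share of promoter windows (%, y axis) that hold at least 1 match to an E2F element, a CHR or the NF-Y box CCAAT (x axis), for the 10 G1, 15 replication and 14 mitosis windows and for all 32851 windows. E2F matches reached 46.7% in the replication windows and CHR matches 71.4% in the mitosis windows, against 2.26% and 17.9% of all windows.

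Each array detected 13621 to 14809 of 45281 probes, that is, with a detection p under 0.01 against the negative control probes. The replicate 3 arrays stood apart. Their median signal was 63.0 to 67.1, against at least 76.8 on the arrays of replicates 1 and 2. The replicate number was a term of the fit because the study's own fit allowed for batch effects and no other label resembles a batch. Marker lists went with the region labels, in that 10 of 10 tested axial progenitor genes were higher in CNH than in PSM and 9 of 10 in TBM than in PSM, while of 8 tested PSM genes 6 were lower in CNH and 5 in TBM than in PSM. Several axial progenitor genes, among them Fgf8, Wnt3a and Greb1, were reported as CNH-enriched from these same arrays. Their count is therefore no independent check of the labels. Markers of other cell types also differed between regions. The summed surface ectoderm signal was 148 to 201 in CNH and 167 to 240 in TBM against 683 to 721 in PSM, with both tested genes called lower in CNH and in TBM. All 3 tested notochord and floor plate genes were called higher in CNH than in TBM, with a median of 1.78, and 2 of them higher in CNH than in PSM. In TBM against PSM 1 of these 3 was called lower, at -1.76. The 1 tested neural tube gene was called higher in CNH, by 1.81 against PSM and 1.53 against TBM, while 8 of the 10 listed were detected on no array. Of 5 tested gut endoderm genes 3 were called lower and 1 higher in TBM than in PSM. The summed endothelial signal was 6975 to 7812 in CNH and 6254 to 7897 in TBM against 3526 to 4188 in PSM, with 6 of 10 genes called higher in CNH and 3 in TBM. Of 8 erythroid genes 3 were called higher in CNH and 2 in TBM, with summed signals of 95260 to 106946 in CNH and 93722 to 98813 in TBM against 76338 to 91259 in PSM. Foxa2 of the notochord list, Epcam of the gut list and Tie1 of the endothelial list were detected on no array, and the part these cells have in the results below was not tested.

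A probe was tested where some region had it detected on each of its 3 arrays. This left 12437 probes, and 34 of the listed genes, 10 of G1, 13 of replication and 11 of mitosis, had at least 1 of them. Values are log2 intensities after background correction and quantile normalization, and the probe with the highest mean stands for its gene. A gene was called at an adjusted p under 0.05 (limma, Benjamini-Hochberg over all tested probes) and a difference of at least 1.5-fold. The other 8 genes with a probe were not tested. Ccne2, encoding a cyclin E, was detected on 6 arrays, those of replicates 1 and 2. Its log2 values there were 8.16 and 8.08 in CNH, 7.95 and 7.82 in TBM and 7.88 and 7.86 in PSM, and on the replicate 3 arrays they were 4.62, 4.58 and 4.42. Cdk6, a partner of the D cyclins, was detected on 2 arrays and Ccna2, cyclin A2, on 1. The probes of Gmnn, the inhibitor of licensing, of Pola1 and Prim1, subunits of the polymerase that primes DNA synthesis, of Ccnb2, a cyclin B, and of Bub1, a checkpoint kinase, were above background on no array. A probe near background gives no measure of its gene in any region.

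Few of these genes were called between the regions. Between CNH and PSM, 1 of 34 genes was called higher, against 7.43% of the 7820 genes tested, and 1 was called lower, against 4.85%. By adjusted p alone 3 of 34 passed, against 20.2% of all genes, and 4 of their 61 tested probes were called, against 11.2% of all probes. Between TBM and PSM, 1 was higher against 5.92% of all genes, 0 were lower against 4.54%, 1 passed the adjusted p alone against 15.3%, and 3 of 61 probes were called against 9.42%. At an unadjusted p under 0.05 the counts were 7 of 34 in CNH and 4 of 34 in TBM, both against PSM, where all genes gave 2553 and 2109 of 7820. Between CNH and TBM, 1 was higher against 0.908% of all genes, 0 were lower against 0.294%, 1 passed the adjusted p alone against 1.23%, and 1 of 61 probes was called against 1.01%. That gene was also the 1 with an unadjusted p under 0.05, where all genes gave 1023. In bulk tissue a smaller share of cells in a phase cannot be told apart from less RNA per cell. The comparisons of CNH and of TBM with PSM share the PSM arrays.

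**Figure D2:**
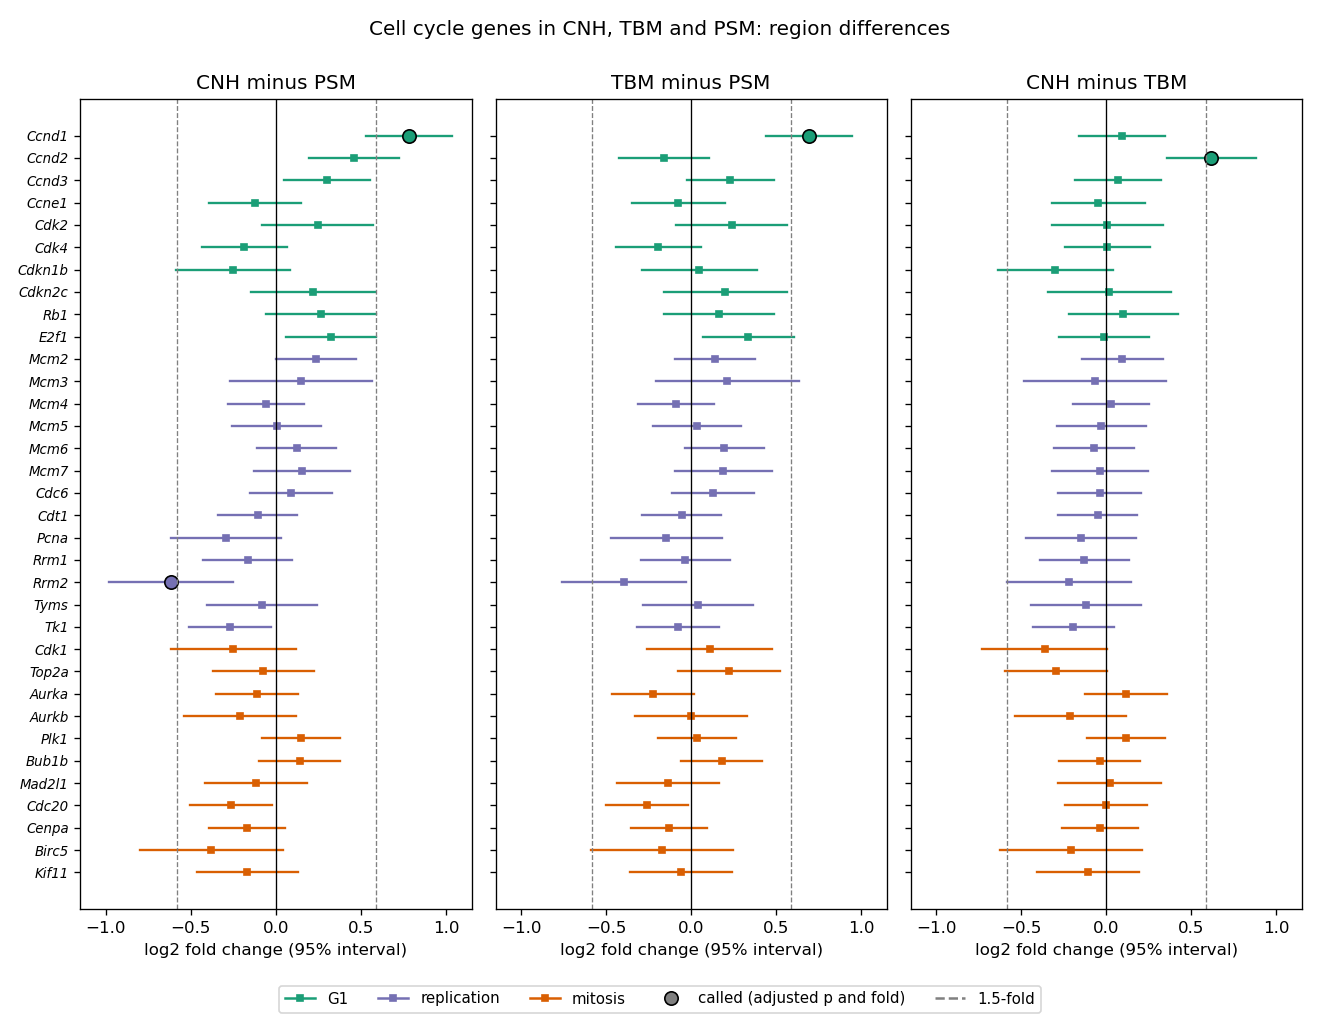
Log2 fold change (x axis) of the 34 tested cell cycle genes (y axis, ordered by phase) with its 95% interval from limma, for CNH minus PSM, TBM minus PSM and CNH minus TBM. Circled points were called, which are Ccnd1 at 0.78 and Rrm2 at -0.62 in CNH against PSM, Ccnd1 at 0.69 in TBM against PSM and Ccnd2 at 0.62 in CNH against TBM.

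The median SE of a difference was 0.119 on the log2 scale. The 95% interval lay wholly within 1.5-fold either way for 25 of 34 genes between CNH and PSM, for 29 between TBM and PSM and for 28 between CNH and TBM. The intervals of the other genes reached 1.5-fold. Among G1 genes the interval lay within that limit for 5 of 10 between CNH and PSM, against 11 of 13 replication and 9 of 11 mitosis genes.

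Of the D cyclins, which start the G1 program, Ccnd1 was called against PSM in both CNH and TBM. Ccnd1, cyclin D1, measured 12.25, 12.42 and 12.17 in CNH, 12.22, 12.24 and 12.10 in TBM, and 11.60, 11.68 and 11.21 in PSM. On this probe, which stands for the gene, all 6 CNH and TBM arrays lay above all 3 PSM arrays. The difference was 0.78 ± 0.11 (SE, n = 3 each) in CNH, 1.72-fold (limma adjusted p = 0.000819), and 0.69 ± 0.11 in TBM, 1.61-fold (limma adjusted p = 0.00211), both against PSM. CNH and TBM differed by 0.09, with a 95% interval of -0.16 to 0.34. The gene's other tested probes gave 1.02 and 0.88 in CNH and 0.94 and 0.78 in TBM, again against PSM, so that all 3 probes were called. On the probe with 1.02 and 0.94 the regions overlapped, since PSM replicate 3 at 10.50 lay above replicates 1 and 2 of CNH and TBM. Within each replicate number PSM was the lowest on that probe too. Replicates 1 and 2 alone gave 0.73 in CNH (limma adjusted p = 0.00539) and 0.62 in TBM (limma adjusted p = 0.0117). Without the replicate term the same differences had limma adjusted p-values of 0.0773 and 0.148.

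Ccnd2, cyclin D2, followed another order. Its values were 9.22, 9.14 and 9.43 in CNH, 8.40, 8.53 and 9.01 in TBM, and 8.56, 8.66 and 9.21 in PSM. The CNH arrays did not overlap with the TBM arrays, while replicate 3 of PSM lay above replicate 2 of CNH. CNH exceeded TBM by 0.62 ± 0.12, 1.53-fold (limma adjusted p = 0.0433). CNH exceeded PSM by 0.46 (limma adjusted p = 0.0227), which is under the 1.5-fold limit, and TBM differed from PSM by -0.16 with an interval of -0.42 to 0.10. The call against TBM was a narrow one, made in 3 of 21 other settings, while the difference ran from 0.38 to 0.72 over them. It was lost on leaving out any 1 of CNH replicates 1 and 2, PSM replicates 1 and 2 and the 3 TBM replicates, with limma adjusted p-values of 0.0633 to 0.288. The other tested probes of Ccnd2 gave 0.53 and 0.43 in the same comparison, neither past the fold limit. In CNH against PSM they gave 0.48 and -0.02, and the adjusted p of the brightest probe was not under 0.05 without CNH replicate 1 or 2, without PSM replicate 1 or 2 (0.0885 to 0.130), without the replicate term (0.787), with replicates 1 and 2 averaged as 1 sample (0.154) or with the mean of the probes (0.0538), all by limma.

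**Figure D3:**
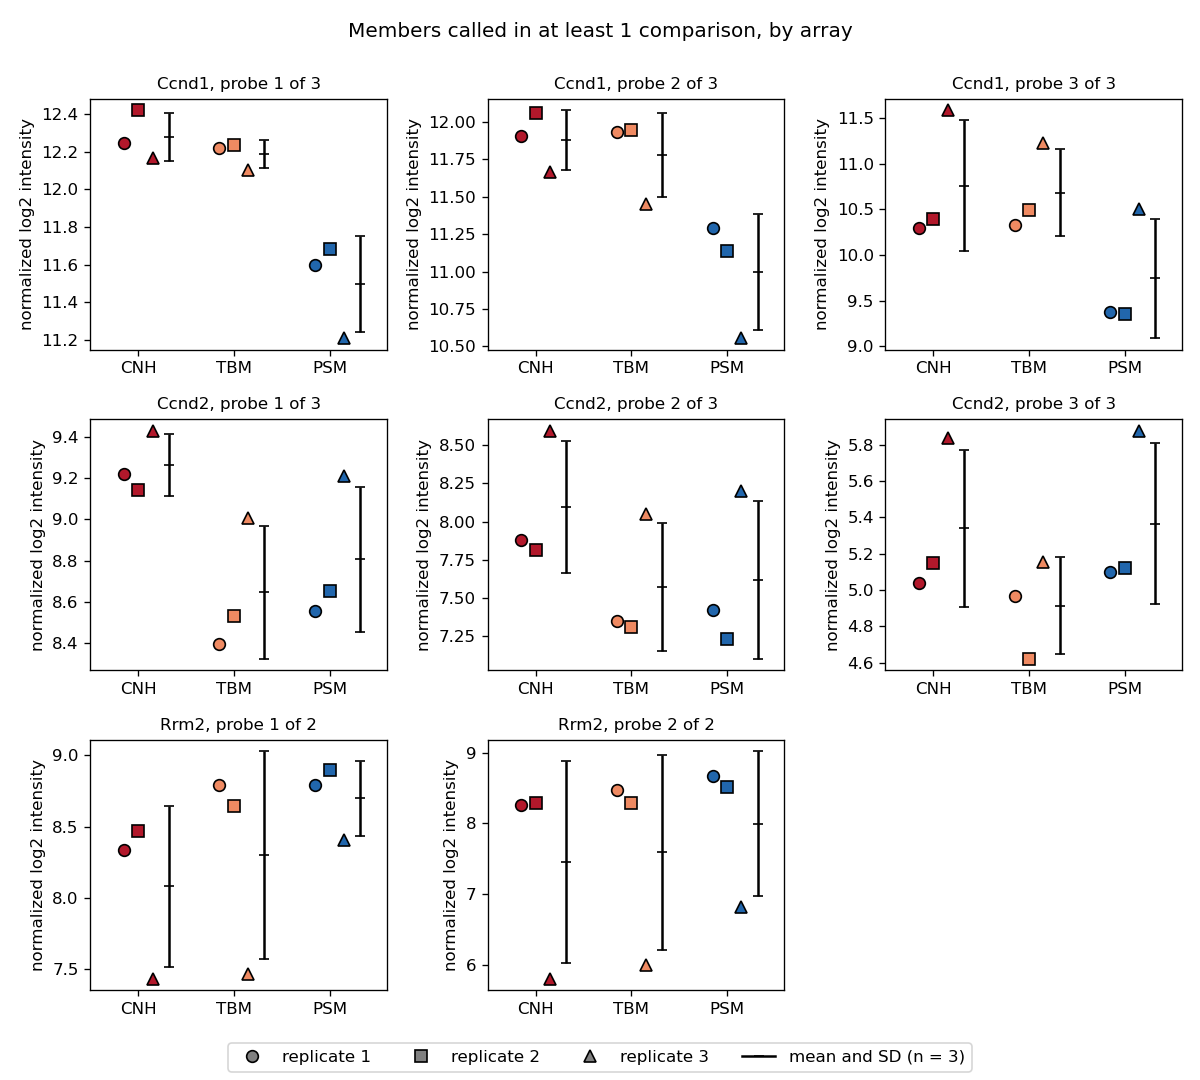
Normalized log2 intensity (y axis, a separate scale in each panel) of every tested probe of Ccnd1, Ccnd2 and Rrm2 on the 3 CNH, 3 TBM and 3 PSM arrays (x axis), with symbols for the replicate number and the mean and SD beside them. In each Ccnd1 panel the PSM point of a replicate number lies below its CNH and TBM points, and in the first Rrm2 panel the CNH and TBM points of replicate 3 lie at 7.43 and 7.47, below the other CNH and TBM points.

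The rest of the G1 genes were not called. Ccnd3, cyclin D3, differed by 0.30 in CNH and 0.23 in TBM from PSM (limma adjusted p = 0.10 and 0.241), and E2f1, an activating E2F factor, by 0.32 and 0.34 (limma adjusted p = 0.0935 and 0.10). Cdk4, the kinase of the D cyclins, had the second highest mean of the phase, by which it is shown in full. It measured 11.71, 11.92 and 10.78 in CNH, 11.76, 11.82 and 10.82 in TBM, and 11.87, 11.94 and 11.17 in PSM. The regions overlapped, and within each replicate number CNH and TBM lay below PSM by amounts that averaged 0.19, with an interval of -0.44 to 0.06 in both cases. Cdk2, the kinase of cyclin E, had 4 tested probes with differences of 0.04 to 0.25 in CNH and 0.14 to 0.59 in TBM against PSM, none of them called. Ccne1, Rb1 and the CDK inhibitors Cdkn1b and Cdkn2c lay between -0.25 and 0.26 in CNH against PSM. Cdkn1b was detected on 7 arrays and Cdkn2c on 8. Over the 10 tested G1 genes the median difference was 0.25 in CNH and 0.18 in TBM against PSM, with 7 of 10 above 0 each time, where all tested genes had medians of -0.04 and -0.02. Using replicates 1 and 2 alone, the G1 medians were 0.22 and 0.04.

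None of the licensing and helicase genes was called. Mcm4, a helicase subunit, measured 11.97, 11.99 and 11.49 in CNH, 11.92, 11.94 and 11.50 in TBM, and 11.97, 12.04 and 11.61 in PSM. Mcm5, from the same hexamer, measured 11.64, 11.68 and 11.83 in CNH, 11.72, 11.79 and 11.74 in TBM, and 11.73, 11.85 and 11.56 in PSM. For both genes, which had the highest means of the phase, the arrays of the regions overlapped, and the intervals of CNH minus PSM were -0.28 to 0.17 for Mcm4 and -0.26 to 0.26 for Mcm5. On the probes that stand for them, the 6 Mcm genes together ranged from -0.06 to 0.23 in CNH and from -0.09 to 0.21 in TBM against PSM. In CNH, further tested probes of Mcm6 and Mcm7 reached 0.24 and 0.36. Cdc6 and Cdt1, which load the helicase at origins, differed by 0.09 and -0.11 in CNH and by 0.13 and -0.06 in TBM. None of these 8 genes had an unadjusted p under 0.05 in any comparison on the probe that stands for it. The other tested Mcm7 probe gave 0.36 in CNH against PSM and 0.36 in CNH against TBM. Its limma unadjusted p-values there were 0.0262 and 0.0272, and its limma adjusted p-values 0.104 and 0.317.

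The genes that supply deoxynucleotides included the 1 replication gene called. Rrm2 measured 8.34, 8.47 and 7.43 in CNH, 8.79, 8.65 and 7.47 in TBM, and 8.79, 8.90 and 8.40 in PSM. The regions overlapped, since replicate 3 of PSM lay below replicate 2 of CNH, but within each replicate number CNH was below PSM. CNH minus PSM was -0.62 ± 0.16, a fold of 0.651 (limma adjusted p = 0.0252), and TBM differed from PSM by -0.40 (limma adjusted p = 0.157). The second tested probe gave -0.54 in CNH (limma adjusted p = 0.0351), under the fold limit. The difference was -0.46 and -0.43 in replicates 1 and 2 and -0.97 in replicate 3. Without replicate 3 of PSM it was -0.39 (limma adjusted p = 0.0735), and the call was also lost without CNH replicate 1, 2 or 3 (limma adjusted p = 0.0922, 0.0555 and 0.0825). It was made in 8 of 21 other settings.

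Rrm1, the large subunit of the same enzyme, differed by -0.17 in CNH and -0.04 in TBM from PSM, and on its other tested probe by -0.33 and -0.24. Tyms, which makes thymidylate, differed by -0.08 and 0.04, and Tk1, the thymidine kinase that salvages it, by -0.27 and -0.08 (limma adjusted p = 0.114 and 0.707). The 3 tested Tyms probes ran from -0.24 to 0.05 in CNH and from -0.11 to 0.04 in TBM. The other tested Tk1 probe gave -0.25 in CNH and -0.26 in TBM. Pcna, the sliding clamp, had 1 probe, detected on 7 arrays, with differences of -0.29 and -0.15 (limma adjusted p = 0.20 and 0.59). None of these 4 genes was called. The median of the 13 tested replication genes was -0.06 in CNH and 0.03 in TBM against PSM, and -0.07 in CNH against TBM. In the last comparison 11 of 13 lay below 0, a larger share than the 4209 of all 7820 genes, whose median was -0.02.

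No mitosis gene was called in any comparison by limma, and 1 of 11 had an unadjusted p under 0.05 in CNH and in TBM against PSM and 0 of 11 in CNH against TBM. Cenpa, the histone variant that marks centromeres, measured 13.07, 13.04 and 12.74 in CNH, 13.10, 13.06 and 12.81 in TBM, and 13.23, 13.18 and 12.96 in PSM. It was lower in CNH than in PSM within each replicate number, by 0.17 on average, with an interval of -0.39 to 0.05. Cdc20, whose promoter is printed above, measured 11.18, 11.15 and 11.99 in CNH, 11.19, 11.17 and 11.96 in TBM, and 11.49, 11.54 and 12.08 in PSM. Replicate 3 of every region lay above replicates 1 and 2 of all regions, and within each number PSM was the highest. The differences from PSM were -0.26 ± 0.11 in CNH and -0.26 ± 0.11 in TBM (limma adjusted p = 0.127 and 0.16). Another Cdc20 probe gave 10.31, 10.57 and 10.91 in CNH, 10.59, 10.70 and 11.14 in TBM, and 10.93, 10.88 and 11.43 in PSM. On that probe CNH minus PSM was -0.48 (limma adjusted p = 0.0106) and on another of the 4 tested probes it was -0.43 (limma adjusted p = 0.0347), both under the fold limit.

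The other mitosis genes fell in a narrow range. Against PSM, CNH differed by -0.38 for Birc5, the survivin subunit of the chromosomal passenger complex, by -0.25 for Cdk1, by -0.21 for Aurkb, the kinase of that complex, and by -0.17 for Kif11, a spindle motor. The differences were -0.12 for Mad2l1, a checkpoint protein, -0.11 for Aurka, a centrosomal kinase, and -0.07 for Top2a, the topoisomerase that untangles sister DNA. Only Plk1, a kinase of mitotic entry, at 0.15 and Bub1b, a checkpoint kinase, at 0.14 lay above 0. On these probes, which stand for the genes, the adjusted p-values in CNH against PSM were all 0.199 or more (limma). The other tested Bub1b probe gave -0.23, and the tested Top2a probes ran from -0.07 to 0.19. On the probes that stand for them, the 11 genes ran from -0.26 to 0.22 in TBM against PSM. In CNH against TBM they ran from -0.36 for Cdk1 to 0.11, while another Top2a probe gave 0.28.

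The mitosis median against PSM was -0.17 in CNH, with 9 of 11 genes below 0 where 4363 of all 7820 genes were, and -0.06 in TBM. For Bub1b and Top2a the sign in CNH depended on which probe stood for the gene. In CNH the median was near 0 in replicates 1 and 2 and lower in replicate 3. Within replicates 1, 2 and 3 the CNH minus PSM median was -0.02, -0.03 and -0.29, and the fit to replicates 1 and 2 alone gave 0.0061. Within the same replicates the TBM minus PSM median was 0.12, -0.06 and -0.12. The replication medians within replicates were -0.0030, 0.02 and -0.07 in CNH and 0.02, -0.02 and -0.09 in TBM, and the G1 medians 0.28, 0.10 and 0.15 in CNH and 0.32, 0.0046 and 0.04 in TBM, all against PSM. Ccnd1 was the only one of the 10 G1 genes called in either comparison, and 16 further G1 genes, given below, had medians below 0. The median size of a difference, whatever its sign, over the 34 genes was 0.178, 0.152 and 0.0819 in CNH against PSM, TBM against PSM and CNH against TBM, where all tested genes had 0.192, 0.166 and 0.119.

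**Figure D4:**
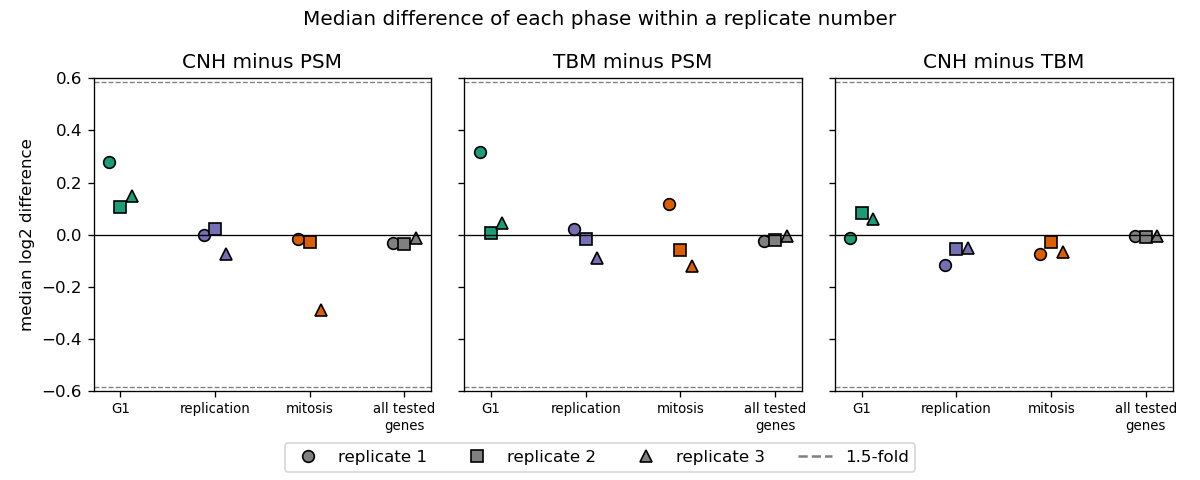
Median log2 difference (y axis) over the tested G1 (10), replication (13) and mitosis (11) genes and over all 7820 tested genes (x axis), within each replicate number, for CNH minus PSM, TBM minus PSM and CNH minus TBM. The mitosis median in CNH minus PSM is -0.29 in replicate 3 against -0.02 and -0.03 in replicates 1 and 2, and no median reaches 1.5-fold (dashed).

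Replicate 3 differed from the others far more than the regions differed. Of the 61 tested probes, 27 in CNH, 25 in TBM and 20 in PSM lay beyond 2-fold from the mean of replicates 1 and 2 (44.3%, 41.0% and 32.8%), against 36.0%, 32.7% and 28.1% of all tested probes. The shift differed mainly between probes and recurred in each region, but not by equal amounts. Its range over the 3 regions had a median of 0.38, against 0.39 for all tested probes. That exceeds the median size of a CNH minus PSM difference of the 34 genes, 0.178. The range was beyond 2-fold for 4 of 61 probes (6.56%, against 3.32% of all). The replicate term removes 1 shift for each probe and not a part that differs between regions. The shift also split probes of 1 gene. Of 17 genes with several tested probes, 12 had probes whose shifts, averaged over the regions, lay more than 1 log2 unit apart. Cdk2 probes shifted by -3.21 to 1.30, Cdc20 probes by -3.70 to 0.72, Tyms probes by -3.82 to 0.08 and Mcm6 probes by -1.93 to 1.28. All 3 Birc5 probes shifted down, by -4.38 to -1.35. Over the 17 genes the median range between probes was 1.32 for this shift and 0.21 for CNH minus PSM, where the widest range was 0.50 for Ccnd2. The cause of the shift was not tested.

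**Figure D5:**
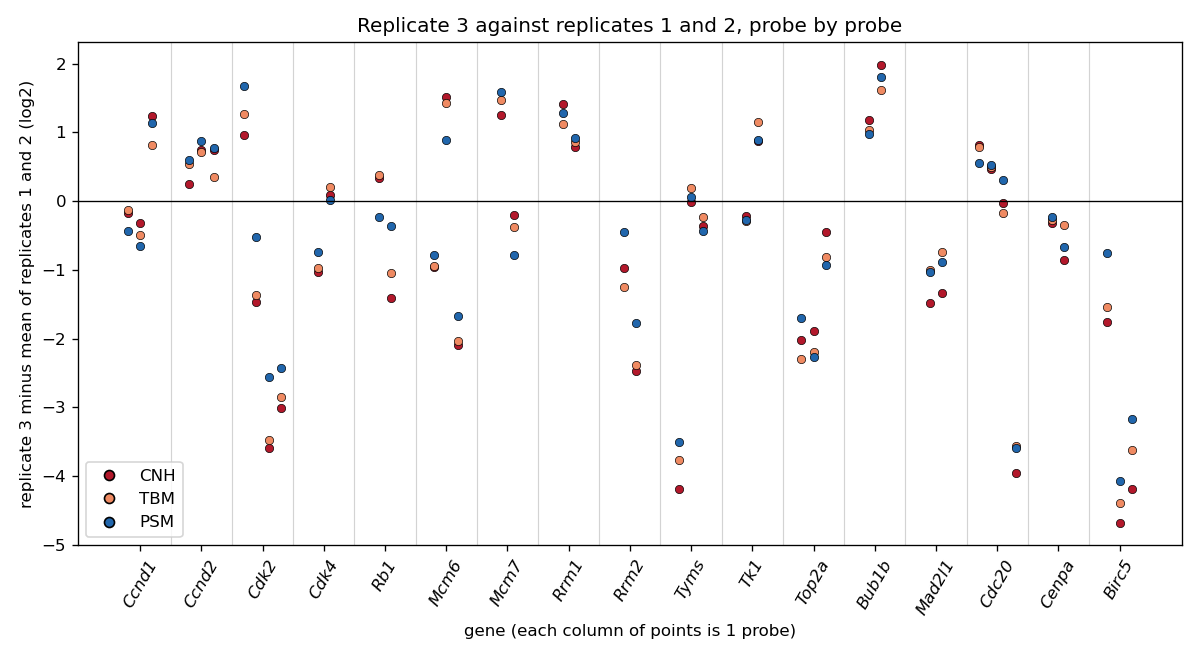
Replicate 3 minus the mean of replicates 1 and 2 (log2, y axis) for each tested probe of the 17 genes with several tested probes (x axis, 1 column of points for each probe), in CNH, TBM and PSM. The 3 regions mostly lie close together for a probe, while probes of 1 gene spread widely, as from -3.21 to 1.30 for Cdk2 and from -3.70 to 0.72 for Cdc20 on average over regions.

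Of 149 further cell cycle genes on a list of the same phases 112 were tested. Of 40 tested genes of replication and 56 of mitosis, none was called in any comparison by limma. By adjusted p alone 7 of these 96 genes passed between CNH and PSM, against 20.2% of all genes, each lower in CNH. They were Orc4, of the origin recognition complex, at -0.50, the histone chaperone Nasp at -0.49, the kinesin Kif18a at -0.57, the cohesin protease Espl1 at -0.54, the transcription factor Foxm1 at -0.44, and the kinetochore genes Cenpf and Cenpp at -0.43 each. Between TBM and PSM, Orc4 (-0.51), the checkpoint gene Bub3 (-0.37) and Cenpm (0.41) passed, against 15.3% of all genes, and none did between CNH and TBM. The medians of these further replication and mitosis genes were -0.12 and -0.13 in CNH and -0.0040 and -0.05 in TBM against PSM.

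Of 16 further G1 genes tested, 3 were called and all were higher in CNH and in TBM than in PSM, against 7.43% and 5.92% of all genes called higher. The 1 other gene of these 16 to pass the adjusted p alone was Tfdp2, a partner of E2F factors, which was lower in CNH than in PSM at -0.43 (limma adjusted p = 0.024). The median of the 16 genes was -0.19 in CNH and -0.12 in TBM against PSM, opposite in sign to the medians of the 10 listed G1 genes. Cdkn1a, encoding the CDK inhibitor p21, measured 9.38, 9.26 and 9.14 in CNH, 7.49, 7.59 and 7.67 in TBM, and 5.75, 5.66 and 5.56 in PSM. The regions did not overlap, and the differences from PSM were 3.61 in CNH and 1.93 in TBM (limma adjusted p = 6.8e-08 and 3.5e-06), with CNH 1.68 above TBM (limma adjusted p = 0.000348). Cdkn1c, encoding the CDK inhibitor p57, measured 12.28, 12.43 and 13.10 in CNH, 11.87, 11.90 and 12.61 in TBM, and 11.36, 11.38 and 11.58 in PSM. Its differences from PSM were 1.16 and 0.69 (limma adjusted p = 0.000205 and 0.00664), and every CNH and TBM array lay above every PSM array. E2f2, an activating E2F factor, measured 7.22, 7.21 and 7.98 in CNH, 7.12, 7.21 and 7.42 in TBM, and 6.51, 6.29 and 7.11 in PSM. It differed by 0.83 and 0.61 from PSM (limma adjusted p = 0.00192 and 0.0137). No PSM array lay above a CNH or TBM array, but PSM replicate 3 at 7.114 nearly equalled TBM replicate 1 at 7.116.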

How the data were processed

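Gene expression was measured on 9 arrays, 3 each for CNH, TBM and PSM. The deposited table holds signal intensities on a linear scale, exported without normalization or background correction, each with a deposited detection p-value. The export software is not given in the sources used here. A further deposited table holds log2-like values that the authors made with lumi (VST and RSN), and it was used as an alternative. Array probes were named through the platform annotation. Of 45281 probes 34885 had 1 symbol, 18 several and 10378 none. Among the 34885, 78 had an Entrez number not found in the gene table and kept the symbol of the platform annotation.

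Signals were corrected with neqc in limma 3.58.1 (R 4.3.3; controls inferred from the detection p-values, offset 16), quantile normalized and put on the log2 scale. The fit had region means and the replicate number as a block, with 4 residual degrees of freedom. Sample titles give the replicate numbers. Deviations from region means correlated at 0.858 to 0.964 between arrays of the same number, at 0.863 to 0.893 between numbers 1 and 2 and at -0.930 to -0.895 between number 3 and the others. Deviations within a region cancel out, so the negative values follow once numbers 1 and 2 are alike. Within number 1 the values were 0.862 to 0.890 and within number 2 0.858 to 0.898. They do not show that numbers 1 and 2 are separate blocks. The script was tested on simulated data with known changes and independent noise around a replicate shift common to the regions. That test does not cover technical replicates or a shift that differs between regions. The genes and lists were chosen with earlier results of these data known. Values on every array were given for genes called in any comparison and for the 2 with the highest means in each phase, and other genes by range, count or a differing probe, call or detection. Figures were drawn with matplotlib 3.10.9.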

Additional observations from a re-analysis of the deposited data

How the results depend on the processing

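The calls among the 44 genes were recomputed under 21 other settings. Between CNH and PSM, 2 were called. This was 1, higher, with the deposited values, without background correction, with an offset of 50, without the filter on dim probes, with replicates 1 and 2 only, with replicates 1 and 3 or 2 and 3 averaged as 1 sample, and with the mean of a gene's probes, and 1 to 2 on leaving out any array. Without the replicate block it was 0. Between TBM and PSM, 1 was called in every setting except without the replicate block, where 0 were. Between CNH and TBM the 1 call became 0 with the deposited values, without background correction, with an offset of 50, with median scaling, without the filter, without the block, with replicates 1 and 2 only, with any of the 3 averagings and with the mean of probes, and was 0 to 1 on leaving out an array. Of 189 phase medians 11 moved by more than the spread between replicates, taken as the SD of the medians within the 3 replicate numbers. A change of sign within that spread was not counted. For G1 in TBM against PSM the spread was 0.17, so a fall from 0.18 to 0.034 with the deposited values was not counted. Nor were replication medians there of -0.0076 and -0.019 without PSM replicate 1 and 3, or a mitosis median of 0.023 with replicates 2 and 3 averaged. In CNH against PSM the G1 median was 0.13 and the replication median 0.0017 with the deposited values, and the mitosis median was 0.0061 with replicates 1 and 2 only. In TBM against PSM the replication median was -0.039 with the mean of probes, and the mitosis median 0.078 with replicates 1 and 2 only and -0.14 to 0.079 on leaving out an array, the last without PSM replicate 3. In CNH against TBM the mitosis median was -0.065 with median scaling, -0.082 with replicates 1 and 2 only, -0.11 with the mean of probes and -0.082 to -0.016 on leaving out an array. The cause was not tested. Called probes of the whole array were 1393, 1172 and 125 in the 3 comparisons, 279, 242 and 15 with the deposited values, 734, 615 and 60 without background correction, 884, 749 and 84 with an offset of 50, 897, 762 and 76 among probes detected on all 9 arrays, 351, 268 and 0 without the block, and between CNH and TBM 20 without the filter, 31 with replicates 1 and 2 averaged and 18 to 179 on leaving out an array.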
